A study of Mus musculus with 6 samples.

Results

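The genes described here encode the proteins of the cytosolic ribosome, in alveolar macrophages with and without a Cre that deletes Pex5. They were taken by symbol from the table of gene counts: names that begin with Rpl or Rps and a digit, the stalk genes Rplp0, Rplp1 and Rplp2, and Rpsa, leaving out the S6 kinases and symbols marked as pseudogenes. This gave 86 of 25664 genes. Of these, 77 encode the standard proteins of the ribosome, 46 in the large subunit and 31 in the small subunit, and are called core genes below. Another 7 are variants or retrogenes of a core gene (Rpl3l, Rpl10l, Rpl22l1, Rpl36al, Rpl39l, Rps27l and Rps27rt). The last 2 match by symbol only: Rpl7l1 is a factor of ribosome assembly and Rps19bp1 a partner protein of Rps19. A test was possible for 85 of the 86, since Rpl10l, known from the testis, had 0 counts in every library.

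The study measured RNA of macrophages sorted from lung lavage fluid, 50000 cells in each sample, by bulk sequencing. The Pex5-deficient group held 3 libraries of genotype Vav1cre/+ Pex5fl/fl, and the control group held 3 libraries of genotype Pex5fl/fl, so both groups carried the floxed allele and only the first the Cre. Pex5 is the receptor that carries enzymes into the peroxisome, and Vav1-Cre is active throughout blood-forming cells, so the deletion was not limited to macrophages. The labels give neither ages nor the mouse behind each sample. A p-value therefore reflects the variation among these 6 samples alone, and part of it may be technical. In bulk RNA, fewer cells of a type and less RNA per cell cannot be told apart.

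A ribosome joins a small subunit, which reads the mRNA, to a large subunit, which forms the peptide bonds. Most of its proteins are present in a single copy per ribosome, and their genes are among the most highly expressed in any cell. Their mRNAs characteristically start with a C followed by a run of pyrimidines, the terminal oligopyrimidine (TOP) motif, through which the kinase complex mTORC1 and the protein LARP1 control their translation.

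The motif was looked for at the RefSeq start sites (build GRCm38.p6), which were found for 66 of the 86 genes. A C within 5 bases of the start, followed by at least 4 pyrimidines on the same strand, was present in 28 of the 66 (42.4%), against 18.8% of all 16521 protein-coding genes with a start. With the C exactly at the start, the figures were 13 of 66 (19.7%) and 2.2%. These starts are annotations, and some lay far from the start of the GENCODE M21 transcript of the gene. The distance was 221 bases for Rps19 and 120 for Rps12, which had no run, and 360 for Rpl15, which had one. A misplaced start would hide the motif, so a gene without a run here may still have it. The following windows, 10 bases before the start and 20 from it on, show what the genes share at this place. Capitals mark the stretch from the C nearest to the start to the last pyrimidine that follows it, and pyrimidines before that C are left in lower case. Rps18 and Rpl14 were among the core genes with the highest fold changes, Rps6 is the protein phosphorylated by the S6 kinases, and Rps27rt is a retrogene of Rps27. Rpl39l, the gene with the largest fold change of the 85 tested, and Rpl9 have no such C within 5 bases of the start, although pyrimidines lie further upstream in the window of Rpl39l.
Rps18, chr17:33955646-33955675, minus strand: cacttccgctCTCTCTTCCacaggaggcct
Rpl14, chr9:120571507-120571536, plus strand: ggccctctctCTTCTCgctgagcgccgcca
Rps6, chr4:86857348-86857377, minus strand: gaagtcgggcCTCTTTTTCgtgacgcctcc
Rps27, chr3:90213629-90213658, minus strand: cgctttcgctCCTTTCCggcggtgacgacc
Rps27rt, chr9:114982720-114982749, minus strand: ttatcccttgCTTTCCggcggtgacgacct
Rpl9, chr5:65391412-65391441, minus strand: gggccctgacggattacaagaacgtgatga
Rpl39l, chr16:10170218-10170247, plus strand: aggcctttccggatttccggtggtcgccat

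The libraries held 13325609 to 19413838 counts. Pex5-deficient replicate 2 was unlike the rest. Its scaling factor by trimmed mean of M values (TMM) was 1.34, while those of the other libraries were 0.899 to 1.03. The 50 genes with the highest mean share over all libraries held 30.4% of its counts, and 38.3% to 42.1% in the other libraries. Red cell genes were at 0 in the controls and summed to up to 6.79 CPM (counts scaled to a total of 1000000 per library) in the Pex5-deficient group, the most in replicate 2. The neutrophil markers summed to 77.7 to 102 CPM in controls and 133 to 180.4 CPM in Pex5-deficient libraries, and 2 of the 4 tested, S100a8 and Cxcr2, were called higher by edgeR, while 4 of the 9 were at 0 in every library (S100a9, Ly6g, Retnlg and Camp). Epithelial markers summed to 40.7 to 54.5 CPM in controls and 66.9 to 73.5 CPM in Pex5-deficient libraries, nearly all of it Cdh1 (not called), with Nkx2-1 at 0. Of the 3 epithelial markers tested, 1 had a log2 fold change above 0, and their median was -0.82. Endothelial and stromal markers summed to 20.4 to 24.6 and 33.6 to 57.9 CPM, nearly all of it Vwf, which was called higher, with Pecam1 and Cdh5 at no more than 0.258 CPM. T and NK cell markers summed to at most 0.901 CPM and B cell markers to at most 0.281 CPM. The 12 alveolar macrophage markers summed to 52793 to 70544 CPM in controls and 45855 to 71451 CPM in Pex5-deficient libraries, and among them edgeR called Siglecf and Krt79 lower and Fabp4 higher. Their median log2 fold change was -0.43, with 3 of 12 above 0 (49.9% of all genes) and 6 at an unadjusted edgeR p under 0.05 (18.9% of all genes). Monocyte and interstitial macrophage markers summed to 56.5 to 66.5 CPM in controls and 38.9 to 79.0 CPM in Pex5-deficient libraries. Of the 3 tested, 1 was called higher, and their median was -0.38. The part of these differences in the results was not tested. Pex5 itself was measured at 33.0, 32.1 and 29.7 TMM-scaled CPM in the controls and 31.4, 36.3 and 29.6 CPM in the Pex5-deficient libraries (log2 fold change 0.04 ± 0.11 SE, adjusted p = 0.891 in edgeR), which does not check the genotype, because the labels do not name the deleted exons and the count is over the whole gene.

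The ribosomal protein genes took a larger share of the counts in every Pex5-deficient library than in any control. The 86 genes held 3.53%, 3.20% and 3.28% of all counts in control replicates 1, 2 and 3, and 4.29%, 3.85% and 4.38% in Pex5-deficient replicates 1, 2 and 3. The groups did not overlap, and the means were 3.34% ± 0.172 and 4.17% ± 0.283 (SD, n = 3), a ratio of 1.25. The counting error of these shares is small beside their spread: the 95% Wilson interval of control replicate 1 ran from 3.52% to 3.54%. Both subunits contributed. Large subunit genes went from 1.98% ± 0.108 to 2.45% ± 0.203 and small subunit genes from 1.32% ± 0.0655 to 1.67% ± 0.0787 (SD, n = 3). The counts of small subunit genes per count of large subunit genes were 0.658, 0.656 and 0.685 in controls and 0.666, 0.715 and 0.672 in Pex5-deficient libraries, overlapping between groups, with Pex5-deficient replicate 2 the highest.

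**Figure D1:**
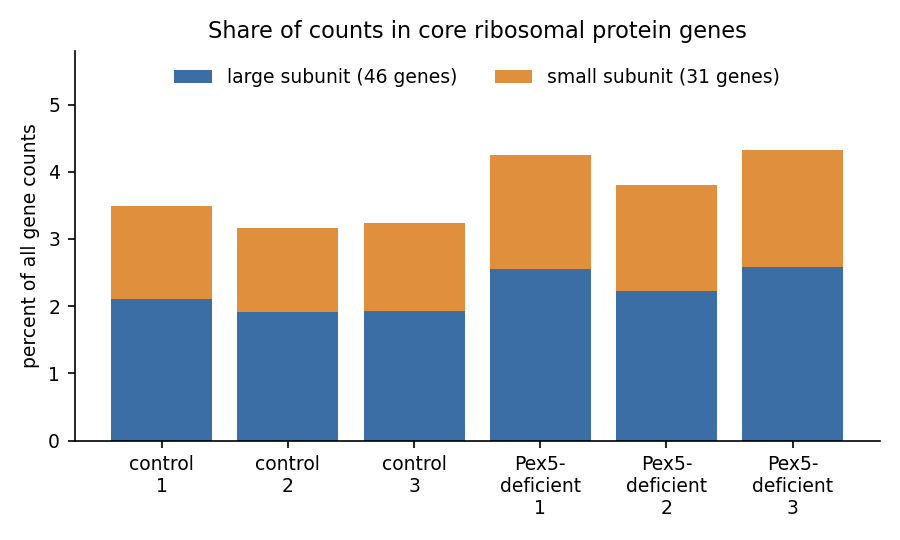
Percent of all gene counts in the 46 large subunit (blue) and 31 small subunit (orange) core genes, stacked, for each of the 6 libraries. All 3 Pex5-deficient bars stand above the 3 control bars.

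The share depends on what else was in each library. When the 50 most abundant genes outside the list, led by Lyz2, Chil3 and Actb, were left out of the total, the share was 6.01%, 5.54% and 5.32% in controls and 7.30%, 5.53% and 7.51% in Pex5-deficient libraries. Pex5-deficient replicate 2 then lay within the control range. The other two Pex5-deficient libraries stayed above it.

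The same contrast appears gene by gene. In CPM of the library total (unscaled CPM), the median core gene lay 0.35, 0.25 and 0.37 above its control mean on the log2 scale in Pex5-deficient replicates 1, 2 and 3, and 76, 67 and 77 of the 77 core genes were above it. In CPM with TMM factors, which set the bulk of all genes equal between libraries, the median core gene lay 0.34 above, 0.24 below (-0.24) and 0.43 above the control mean in the same order, and 76, 7 and 77 of 77 were above it. So replicate 2 changed sides with the scaling, while replicates 1 and 3 did not. The controls spanned 0.09 to -0.06 unscaled and 0.17 to -0.14 with TMM factors.

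**Figure D2:**
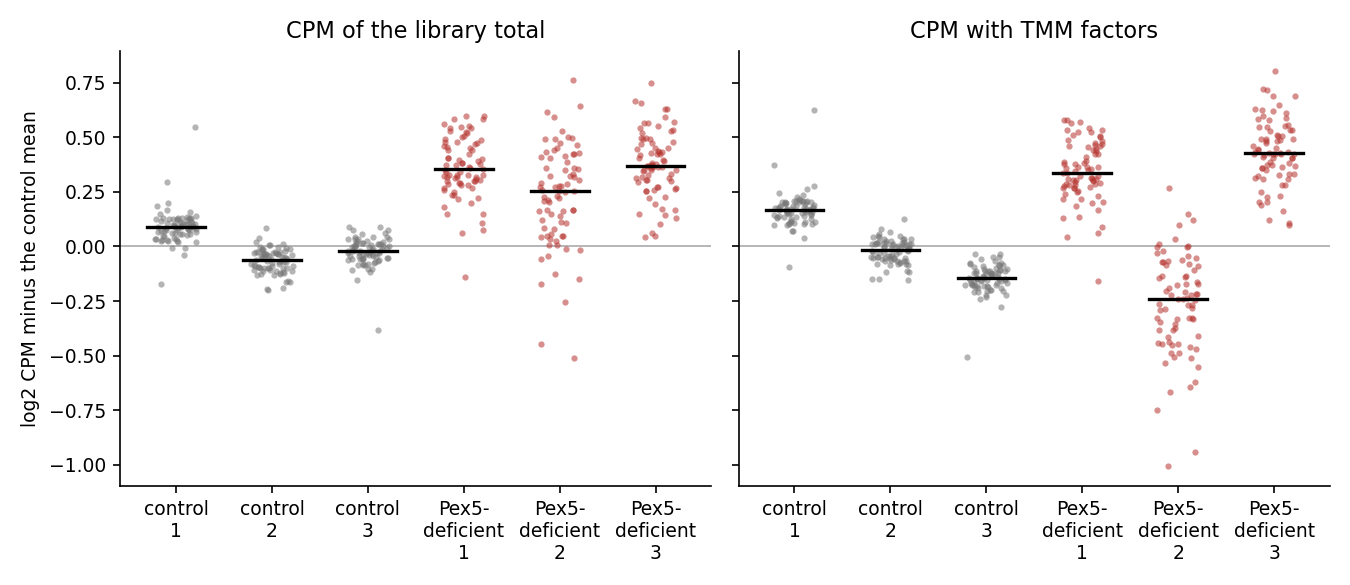
Each point is 1 of 77 core genes in 1 library, as log2 CPM minus the gene's control mean, from unscaled CPM on the left and TMM-scaled CPM on the right; black lines are medians, grey points controls and red points Pex5-deficient libraries. Pex5-deficient replicate 2 has its median at 0.25 on the left and -0.24 on the right.

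Counting genes whose 3 Pex5-deficient values all lay above the 3 control values shows the same dependence. In unscaled CPM, 59 of 85 genes did (69.4%), against 14.3% of all tested genes, and 0 of 85 had all values below the controls (2.99% of all tested genes). With TMM factors 3 of 85 did, namely Rpl9, Rpl12 and Rpl39l (3.53%, against 13% of all tested genes), and 0 of 85 lay below (13.1% of all tested genes). With TMM factors and without Pex5-deficient replicate 2, 68 of 85 lay above the controls, against 19.3% of all tested genes.

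In the test across all 11011 genes (edgeR's quasi-likelihood F test on counts with TMM factors, Benjamini-Hochberg adjustment, threshold 0.05), 1 of the 85 genes was called higher in Pex5-deficient macrophages, Rpl39l, and 0 were called lower. Of all genes tested, 3.25% were called, 1.74% higher and 1.51% lower. Before adjustment, 5 of the 85 had a p under 0.05 and were on the higher side (Rpl39l, Rpl12, Rpl9, Rps18 and Rps25) and 0 on the other, a share of 5.88% against 9.7% of all genes higher at that level. The fold changes were small and mostly of one sign: 78 of 85 were above 0, against 49.9% of all genes, and their median was 0.20 on the log2 scale, against 0.00 (-0.000767) for all genes. The median was 0.18 in the large subunit and 0.20 in the small subunit. Single members move together within a library, so these signs are not independent of each other.

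The number of genes called depended on the libraries included and on the scaling. Without Pex5-deficient replicate 1, or without any one of the 3 controls, edgeR called 0 of 85. Without Pex5-deficient replicate 3 it called 1, Rpl39l, the median fell to 0.08, and 59 of 85 were above 0. Without Pex5-deficient replicate 2, 17 of 85 were called higher by edgeR and none lower, against 2.77% of all genes called higher. The median was 0.39, and 66 of 85 were higher at an unadjusted p under 0.05 against 11.4% of all genes. Among the 17 were Rps18, Rps7, Rpl9, Rps19, Rpl32, Rpl17, Rpl14, Rplp1, Rps24, Rps25, Rpl12, Rps14, Rps3, Rpl26, Rpl7a and Rpl35, with log2 fold changes of 0.48 to 0.66. With all 6 libraries and library size only, 5 were called higher, against 2.62% of all genes, among them Rpl39l, Rps18, Rpl9 and Rplp1. Under that scaling the median of all genes itself was 0.17, and the 85 genes lay 0.16 above it (median 0.33). The split of calls over all genes moved from 192 higher and 166 lower with TMM factors to 289 higher and 132 lower. DESeq2 called 2 of 85, Rpl39l and Rpl12, against 3.57% of all genes higher.

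**Figure D3:**
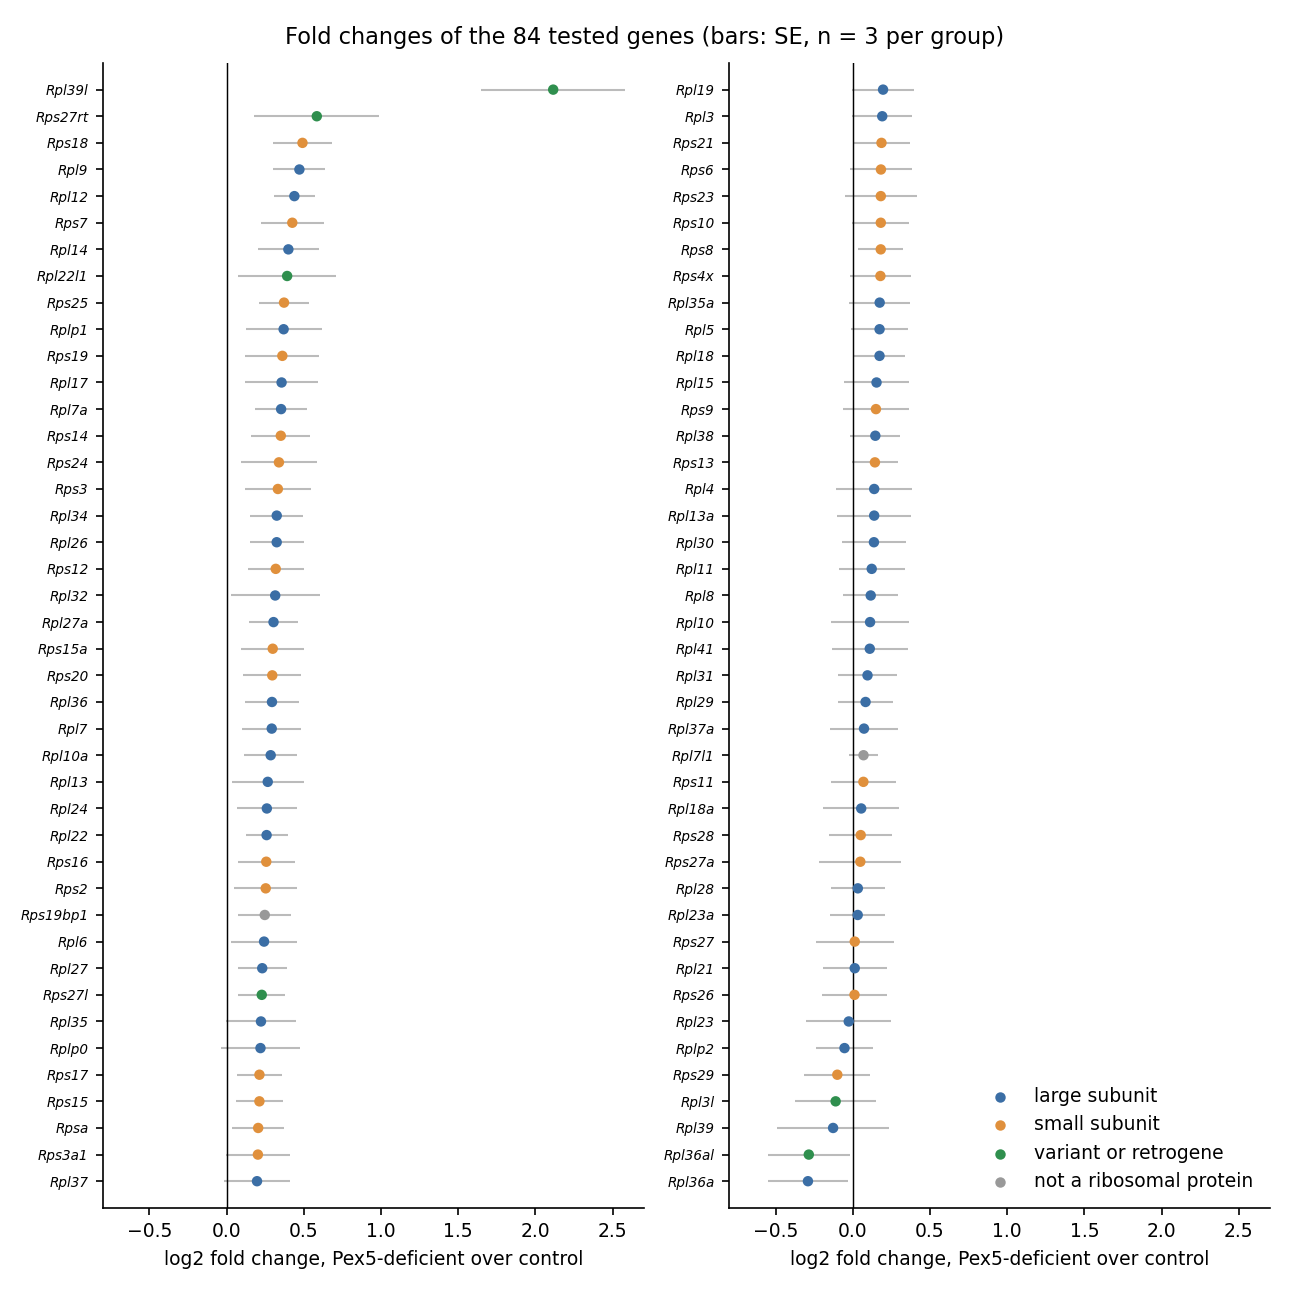
Log2 fold change (Pex5-deficient over control, edgeR with TMM factors) of 84 of the 85 tested genes with its SE, ordered by size in a right and a left panel, coloured by subunit or class. Rpl39l stands at 2.12, and the others drawn lie between -0.29 and 0.58.

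Rpl39l encodes a variant of Rpl39, the small protein that lines the tunnel through which the new peptide leaves the large subunit; the variant is known from male germ cells. It was counted 3, 10 and 5 times in the controls and 30, 45 and 18 times in the Pex5-deficient libraries. In TMM-scaled CPM this was 0.235, 0.573 and 0.338 against 2.35, 1.89 and 1.02, so the groups did not overlap, but the exact Poisson 95% intervals of the lowest Pex5-deficient library (0.603 to 1.61 CPM) and the highest control (0.275 to 1.05 CPM) did. The log2 fold change was 2.12 ± 0.47 (SE; 95% interval 1.05 to 3.18; edgeR adjusted p = 0.0484), from a mean of 0.382 ± 0.173 to 1.75 ± 0.675 CPM (SD, n = 3). The call is close to the threshold. Its adjusted p ranged from 0.0032 to 0.177 over 12 other settings, of which 5 kept the call, and without Pex5-deficient replicate 2 it was 0.0802. In all 12 the fold change was positive, between 1.88 and 2.55.

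Reads of Rpl39l can be told from those of Rpl39. The gene lies at chr16:10170226-10174911 on the plus strand of GRCm38 (ENSMUSG00000039209.12), Rpl39 at chrX:37082520-37085402 on the minus strand (ENSMUSG00000079641.3), and none of the 100-base words of the Rpl39l transcript, which are as long as a read, occurs in another annotated transcript. The 2 coding sequences, from the GENCODE M21 transcripts, are both 153 bases long and identical at 84.97% of them. They are printed because the single call among the 85 genes rests on this distinction; capitals mark the 23 bases that differ, and the longest stretch without a difference is 38 bases.
Rpl39l: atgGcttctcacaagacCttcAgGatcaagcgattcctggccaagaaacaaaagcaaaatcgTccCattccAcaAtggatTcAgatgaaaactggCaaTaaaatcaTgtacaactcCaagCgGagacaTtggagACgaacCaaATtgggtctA
Rpl39: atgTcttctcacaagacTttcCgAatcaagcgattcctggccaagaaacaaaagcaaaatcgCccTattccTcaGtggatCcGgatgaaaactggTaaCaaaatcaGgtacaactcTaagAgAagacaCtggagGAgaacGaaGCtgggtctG

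Rpl39 itself was at 263, 158 and 120.4 TMM-scaled CPM in controls and 176, 89.1 and 230.1 CPM in Pex5-deficient libraries, with wide and overlapping groups (log2 fold change -0.13 ± 0.36 SE, edgeR adjusted p = 0.888). For every 1000 counts of Rpl39 there were 0.891, 3.64 and 2.80 counts of Rpl39l in controls and 13.3, 21.2 and 4.42 in Pex5-deficient libraries. The variant remained a minor form in all 6 libraries. The log2 ratio of the pair was 2.37 higher in the Pex5-deficient group, the groups did not overlap, and the two-sided exact permutation p was 0.1 (0.6 adjusted over 6 pairs), the smallest that 3 against 3 libraries can give. A ratio within a library does not depend on scaling, and it shows unequal change, not which gene changed.

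The other pairs of variant and parent gene, and the pair of the assembly factor Rpl7l1 with Rpl7, did not separate the groups. Rps27l, a variant of Rps27 known as a target of p53, was counted 201, 191 and 216 times per 1000 counts of Rps27 in controls and 239.9, 292 and 202 times in Pex5-deficient libraries (log2 difference 0.26, exact permutation p = 0.2, adjusted 0.6). Rpl22l1, the paralog of the RNA-binding protein Rpl22, was uneven within both groups: 731, 412 and 403 per 1000 counts of Rpl22 in controls and 438, 471 and 781 in Pex5-deficient libraries (0.14, exact permutation p = 0.5, adjusted 0.75). High values were thus found in 1 library of each group. Rpl36al, an autosomal copy of the X-linked Rpl36a, stayed at 499 to 514 per 1000 in controls and 471 to 571 in Pex5-deficient libraries (-0.01, exact permutation p = 1, adjusted 1). Rpl3l, the variant of heart and skeletal muscle, was at 5.32 to 12.5 per 1000 counts of Rpl3 in controls and 5.97 to 10.2 in Pex5-deficient libraries (-0.22, exact permutation p = 0.7, adjusted 0.84). Rpl7l1 was at 149 to 173 per 1000 counts of Rpl7 in controls and 122 to 173 in Pex5-deficient libraries (-0.20, exact permutation p = 0.4, adjusted 0.75).

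**Figure D4:**
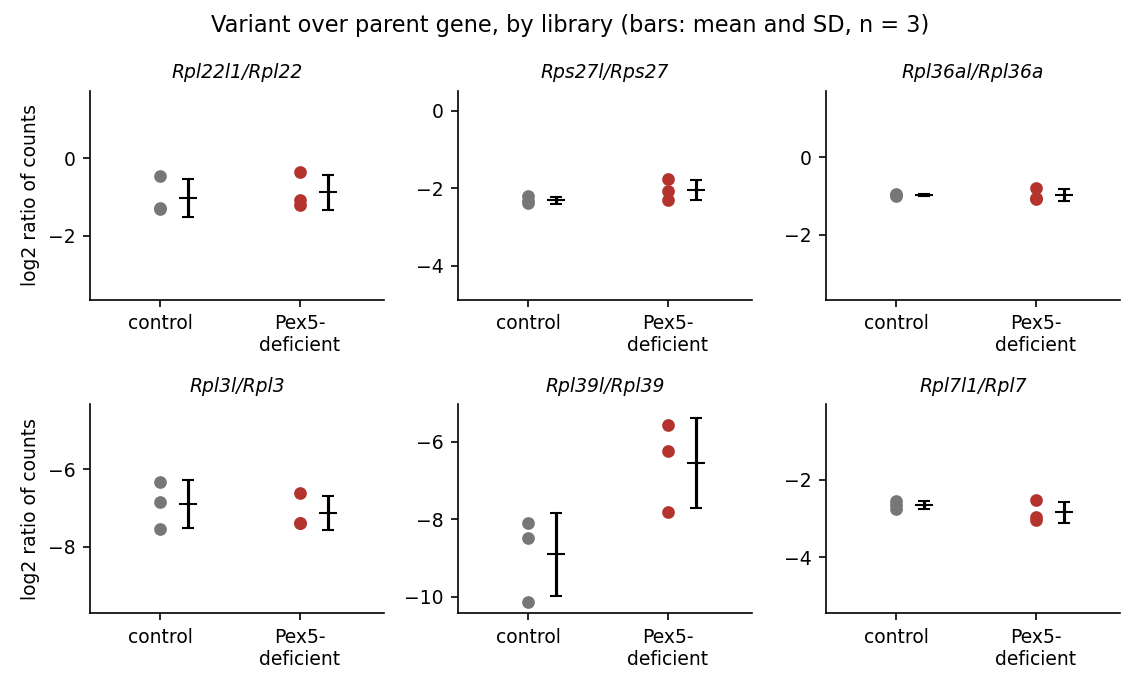
Log2 ratio of the counts of a variant to those of its parent gene in each library, with mean and SD per group (n = 3) beside the points. Each panel spans the same number of log2 units, and the assembly factor Rpl7l1 is set against Rpl7. The groups are apart for Rpl39l/Rpl39 and overlap in the other 5 panels.

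Rps27rt cannot be measured on its own. Its coding sequence is identical to that of Rps27 over all 252 bases, 89.5% of its 100-base words occur in other transcripts, and it was listed at 10, 20 and 14 counts in controls and 24, 19 and 32 in Pex5-deficient libraries (log2 fold change 0.58 ± 0.40 SE, edgeR adjusted p = 0.479). Rps27 has 98.4% of its words in common with other transcripts, so its own value is uncertain too. Sharing of this kind is common in this family, mostly with processed pseudogenes: 76 of 86 genes share at least 1 word with another annotated gene, and 32 share at least 50% of their words. Core genes under that limit had a median log2 fold change of 0.20 (n = 47) and those above it 0.19 (n = 30).

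Within the large subunit, the stalk recruits the factors that drive elongation. Rplp0, its anchor, was at 2086, 1888 and 1739.9 TMM-scaled CPM in controls and 2433, 1484 and 2736 CPM in Pex5-deficient libraries (log2 fold change 0.22 ± 0.26 SE, edgeR adjusted p = 0.697). Replicates 1 and 3 lay above all controls and replicate 2 below them. Rpl12, at the base of the stalk, was at 136, 107 and 116 CPM against 169, 143 and 175 CPM, without overlap (0.44 ± 0.13 SE, edgeR adjusted p = 0.116). Of the acidic stalk proteins, Rplp1 had a fold change of 0.37 ± 0.25 and Rplp2 one of -0.05 ± 0.18 (log2, SE). Rplp2 was at 479, 414 and 379 CPM against 463, 310.1 and 452 CPM, so its groups overlapped. With TMM factors edgeR called none of the 4 stalk genes in all 6 libraries, and 2 of 4, Rplp1 and Rpl12, without Pex5-deficient replicate 2.

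Rpl5 and Rpl11 form a particle with 5S RNA, which also binds the p53 inhibitor Mdm2 when ribosome assembly fails. Rpl5 was at 303, 258 and 263 TMM-scaled CPM in controls and 353, 227 and 349.6 CPM in Pex5-deficient libraries, and Rpl11 at 513, 451 and 388 against 532, 345 and 593 CPM. In both, replicate 2 lay below every control and the other two Pex5-deficient libraries above every control, with log2 fold changes of 0.17 ± 0.18 and 0.12 ± 0.21 (SE). Among 8 proteins of the peptide exit tunnel and its mouth, the median fold change was 0.17 (range -0.13 for Rpl39 to 0.36 for Rpl17), and around the peptidyl transferase centre it was 0.19 for Rpl3, 0.12 for Rpl8 and 0.11 for Rpl10, none of them called. Rpl9, a large subunit protein close to the factor-binding site, was at 464, 433 and 395 CPM in controls and 642, 476 and 673 CPM in Pex5-deficient libraries. Its groups did not overlap on either scale (0.47 ± 0.17 SE, edgeR adjusted p = 0.177), but 87.0% of its words occur in other transcripts. Rpl14 was at 0.40 ± 0.20 (log2, SE), after Rpl9 and Rpl12 in the large subunit.

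In the small subunit, the highest fold change was that of Rps18, a protein of the head that faces the transfer RNAs. It was at 514, 439 and 419 TMM-scaled CPM in controls and 637, 496 and 796 CPM in Pex5-deficient libraries (log2 fold change 0.49 ± 0.19 SE, edgeR adjusted p = 0.22). Replicate 2 lay between the controls, while in unscaled CPM all 3 Pex5-deficient libraries (611, 662 and 726) were above all controls (462, 404 and 432). Rps7, which is mutated in some families with Diamond-Blackfan anaemia, was at 277, 247 and 217 against 355, 235 and 405 TMM-scaled CPM (0.43 ± 0.20 SE, edgeR adjusted p = 0.3). The 9 core genes known from that anaemia in the list used here had a median of 0.18 (log2), from 0.01 for Rps26 to 0.43 for Rps7, and 0 of 9 were called with all libraries. The mRNA entry proteins Rps2 and Rps3 were at 0.25 and 0.33, the decoding centre proteins Rps23 and Rps15 at 0.18 and 0.21, and the proteins marked with ubiquitin on stalled ribosomes, Rps10 and Rps20, at 0.18 and 0.30. The medians of the 10 role groups used here lay between 0.11 and 0.29, and without Pex5-deficient replicate 2 between 0.31 and 0.49. In that fit 3 of 8 exit tunnel genes and 3 of 9 anaemia genes were called. So were 2 of 4 stalk, 2 of 5 mRNA exit and 1 of 2 mRNA entry genes, and none in the other groups. Over all core genes it was 17 of 77 (22.1%), against 2.77% of all genes called higher.

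At the low end, Rpl36a, which sits where the spent transfer RNA leaves, was at 319, 284 and 236 TMM-scaled CPM in controls and 249, 138 and 299 CPM in Pex5-deficient libraries (log2 fold change -0.29 ± 0.26 SE, edgeR adjusted p = 0.589). Its copy Rpl36al went with it, at 159, 144 and 121 against 142, 66.4 and 141 CPM (-0.29 ± 0.26 SE, edgeR adjusted p = 0.607). For both the lowest library was Pex5-deficient replicate 2 and the groups overlapped. Rps29, a zinc-binding protein of the small subunit head, was at 570.3, 461 and 472 against 519.7, 325 and 558 CPM (-0.10 ± 0.21 SE). Rpl3l was at 3.75, 7.50 and 5.27 against 4.61, 5.59 and 5.14 CPM (-0.11 ± 0.26 SE).

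To see whether the proportions within the set differed, each core gene was also expressed relative to the median core gene of its library. On that scale 14 of 77 core genes lay higher in all 3 Pex5-deficient libraries than in any control and 13 lay lower. The shares among all tested genes were 3.16% and 10.5%, where with TMM factors they were 13% and 13.1%. The median comes from the core genes, so this scale removes what they share in a library, but not what other genes share. The counts of core genes and the shares of all genes are therefore not comparable, and no conclusion is drawn from setting them side by side. The 14 were 6 large and 8 small subunit genes, the 13 were 9 and 4. Rps18 lay 0.15, 0.36 and 0.38 above its control mean in the Pex5-deficient libraries, and Rpl9 0.24, 0.39 and 0.22 above it (log2 relative to the median core gene). Rpl36a lay at -0.49, -0.76 and -0.32, Rps29 at -0.28, -0.38 and -0.26, and Rplp2 at -0.20, -0.20 and -0.33. A core gene could lie on either side of this median, and 50 of the 77 overlapped between the groups.

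**Figure D5:**
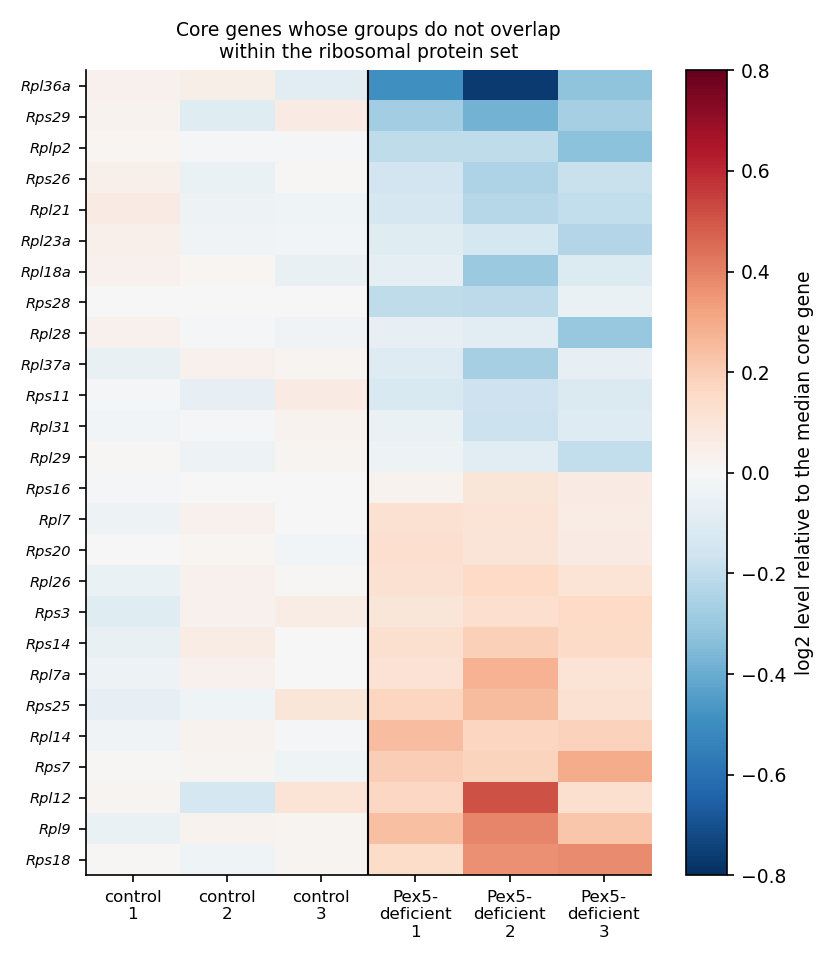
Log2 level relative to the median core gene of the same library, minus the control mean, for 26 of the 27 core genes whose groups do not overlap on this scale; red is higher and blue lower. The 13 genes at the top are lower and the 13 at the bottom higher in all 3 Pex5-deficient libraries.

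With edgeR scaled on the median core gene, 0 of 77 core genes were called, against 3.85% of all genes (1.19% higher, 2.66% lower). At an unadjusted p under 0.05 there was 1, against 10.1% of all genes: Rpl36a, at -0.52 ± 0.21 (log2, SE, edgeR adjusted p = 0.212). The scaling centres the core genes and not the others, so these shares are not comparable either. The standard errors did not follow a gene's own spread relative to the median core gene. They were 0.19 for Rps16 and 0.23 for Rpl39, whose SDs within groups were 0.02 and 0.39 (log2). The lack of calls in this fit therefore cannot decide whether the proportions within the set differed. Rps18 was at 0.30 ± 0.18 in that fit. Without Pex5-deficient replicate 2, 1 core gene was called lower, where 26.6% of all genes were, and these are not comparable for the same reason. It was again Rpl36a (-0.42 ± 0.15, edgeR adjusted p = 0.0487), which has 83.6% of its words in common with other transcripts. This comparison and its scaling were chosen after the data were seen.

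Levels differed far more between the genes than between the groups. Per kilobase of transcript, in TMM-scaled CPM, the median of 75 core genes in controls was 471, and the highest was 24.2 times the lowest. The highest were Rplp1 at 2331 ± 323, Rps27 at 1808 ± 198, Rpl32 at 1684 ± 206, Rpl10 at 1562 ± 189, Rpl41 at 1456 ± 92.2 and Rplp0 at 1403 ± 128 CPM per kilobase (SD, n = 3). The step from Rplp1 to Rps27 was larger than their spread, but the following 5 were not ordered beyond it, and Rps27 and Rpl10 share 98.4% and 91.6% of their words with other transcripts. Rpl12 was the lowest core gene at 96.3 ± 11.9, on an annotated transcript of 1242 bases. The lowest tested genes were Rpl3l at 4.01 ± 1.37, Rps27rt at 2.56 ± 0.486 and Rpl39l at 0.474 ± 0.215 CPM per kilobase. Rps15a and Rps20 were left out of this order because their annotated transcripts are over 3000 bases long.

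The medians of core genes split by what they share in sequence were close to each other. The 25 core genes with a pyrimidine run near the start had a median log2 fold change of 0.18 and the 32 with a start but no run one of 0.22. This split depends on the annotated starts, and some of the 32 may have a run at another start. Small nucleolar RNAs, which guide modifications of ribosomal RNA and are often carried in introns of these genes, lie inside 30 of the 77 core genes, 58 of them in all; the medians with and without them were 0.19 and 0.20. Across the 77 core genes, Pearson's r of the fold change was 0.17 with transcript length, 0.02 with GC content and 0.01 with the share of words in other transcripts, as a description over genes that come from the same 6 libraries. The genes are spread over 19 chromosomes.

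Some ribosomal components lie outside the symbol rule. In TMM-scaled CPM, Fau, whose product is cleaved to a small subunit protein, had a log2 fold change of -0.05 ± 0.26. Rack1, a scaffold on the small subunit, was at 0.26 ± 0.15. Neither was called.

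The genes that make and use ribosomes were compared by lists, whose counts stand against 3.25% of all tested genes called and 18.9% at an unadjusted p under 0.05 in either direction. Of 42 ribosome assembly factors, 0 were called by edgeR (7 at an unadjusted p under 0.05) and the median log2 fold change was 0.11. Of 6 chaperones that escort single ribosomal proteins, 0 were called (2 unadjusted), with a median of 0.27. Of 14 genes of RNA polymerase I transcription, which makes the precursor of the ribosomal RNAs, 1 was called higher: Polr1d, a subunit shared with RNA polymerase III, at 65.5, 67.8 and 58.5 TMM-scaled CPM in controls and 94.7, 84.5 and 86.6 CPM in Pex5-deficient libraries (0.47 ± 0.10 SE, edgeR adjusted p = 0.0482). The median of that list was -0.04.

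Other TOP mRNAs of the translation machinery, such as elongation factors, gave 0 calls of 16 (3 unadjusted) and a median log2 fold change of 0.18. Of 25 initiation factors, 0 were called (4 unadjusted), with a median of 0.13. Eif5b, which joins the subunits, came nearest to the threshold, at 47.8, 46.8 and 46.8 TMM-scaled CPM in controls and 35.5, 37.2 and 35.2 CPM in Pex5-deficient libraries (-0.39 ± 0.09 SE, edgeR adjusted p = 0.0526), lower in all 3 and against the sign of most of the list; Eif2s2 was at 0.43 ± 0.12. Of 15 genes of mTOR control, 0 were called (3 unadjusted; median 0.09), among them Myc at 0.42 ± 0.13, which drives ribosome production, and the translation repressor Eif4ebp1 at -0.30 ± 0.10 (log2, SE). Of 18 genes that rescue stalled ribosomes, 0 were called (2 unadjusted; median 0.03), with Map3k20, the kinase that senses collided ribosomes, at 0.45 ± 0.11 and the ubiquitin ligase Ltn1 at -0.30 ± 0.11.

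The mitochondrial ribosome is built from a separate set of nuclear genes. Of its 78 tested protein genes, 77 had a log2 fold change above 0, against 49.9% of all genes, with a median of 0.21, and 25 had an unadjusted p under 0.05, against 18.9% of all genes. Of the 78, 1 was called, against 3.25%: Mrpl14, at 46.7, 47.0 and 51.7 TMM-scaled CPM in controls and 71.0, 69.5 and 70.0 CPM in Pex5-deficient libraries (0.53 ± 0.09 SE, edgeR adjusted p = 0.0221). In TMM-scaled CPM the median gene of that set lay 0.24, 0.16 and 0.23 above its control mean in Pex5-deficient replicates 1, 2 and 3, whereas the median core gene of the cytosolic ribosome lay at 0.34, -0.24 and 0.43. The difference between the sets was not tested. Of 10 tested p53 targets, 1 was called higher, Phlda3, an inhibitor of Akt, from 49.7 ± 3.31 to 161 ± 40.3 CPM (SD, n = 3; 1.70 ± 0.18 on the log2 scale, SE; edgeR adjusted p = 0.00373), and the median of that list was 0.22.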

How the data were processed

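Per the labels' protocols, RNA of sorted alveolar macrophages was made into stranded SMART-Seq libraries and sequenced as single reads of 100 bp. The authors deposited whole-number counts per gene symbol, 1 column per library. The submitters' processing notes name STAR, featureCounts, R 4.3.2 and DESeq2 1.40.1, with builds GRCm38.p5 and mm10. Not given in the sources used here: tool versions for STAR and featureCounts, the annotation and the strand setting. It is therefore not known whether reads of overlapping or antisense genes were separated. No molecular identifiers are named, and intervals cover counting error only.

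Groups came from the genotype labels. Counts were tested in edgeR 4.0.16 (R 4.3.3; filterByExpr with minimum count 10 and minimum total 15; TMM factors; glmQLFit and glmQLFTest, two-sided; Benjamini-Hochberg over 11011 genes), which gave every adjusted p that names no other tool. A standard error is the log2 fold change over the root of F. Log2 ratios of the counts of a pair were tested by exact permutation. The model was tested on simulated data. DESeq2 1.42.0, limma-voom (limma 3.58.1), other scalings and filters, and leaving out each library were alternatives. No libraries held near-identical counts.

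Transcript lengths, coordinates and shared 100-base words are from GENCODE M21 (GRCm38; all 86 symbols matched; the best-supported, then shortest, principal transcript), and start sites from RefSeq. Words were compared with annotated transcripts only, not with the genome. Named genes were Pex5, called members, the 6 highest and 6 lowest fold changes at a mean of at least 5 CPM, the 6 highest and 3 lowest levels per length, the variant pairs, and per list the called or the 2 most significant genes; others were named for their role after their values were seen. Not every gene that this rule names is reported here. The members, lists and role groups were chosen with earlier results of these data known.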

Additional observations from a re-analysis of the deposited data

How the results depend on the processing

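The share of counts, the median fold change of the 85 genes and the fold change of Rpl39l kept their sign under every alternative that was run. The difference in the share was 0.836 percentage points, and leaving out single libraries gave 0.734 to 0.997. With the 50 most abundant other genes left out it was 1.16 points, but of a smaller total. The ratio of the group means then went from 1.25 to 1.21, and the groups overlapped. The median log2 fold change of 0.20 ranged from 0.08 to 0.39 when single libraries were left out. The number of genes called, 1 with edgeR and TMM factors, was 5 with library size only, 2 with DESeq2, 0 with limma-voom (6 at an unadjusted p under 0.05), 0 of 83 at a mean of at least 5 CPM, a filter that leaves Rpl39l untested, and 0 to 17 when single libraries were left out: 17 without Pex5-deficient replicate 2, 1 without replicate 3, and 0 without replicate 1 or without any one control. Relative to the median core gene, 0 to 1 core genes were called when single libraries were left out. Of 349 values of 27 named genes under the alternatives, 309 kept direction and call, 20 changed sign, 13 gained a call and 7 lost one, all 7 those of Rpl39l.

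The changes of sign were all in genes and ratios that passed no threshold. Under library size only they were Rpl3l at 0.0751, Rplp2 at 0.0797 and Rps29 at 0.0173 (log2), and under limma-voom Rps27 at -0.0148. With single libraries left out, log2 fold changes ran from -0.0395 to 0.10 for Pex5, -0.0277 to 0.36 for Rpl10, -0.45 to 0.0116 for Rpl36al, -0.45 to 0.25 for Rpl39, -0.32 to 0.18 for Rpl3l, -0.0756 to 0.37 for Rpl41, -0.15 to 0.12 for Rplp2, -0.24 to 0.27 for Rps27 and -0.25 to 0.12 for Rps29, and log2 ratios from -0.12 to 0.42 for Rpl22l1/Rpl22, -0.0928 to 0.0448 for Rpl36al/Rpl36a and -0.55 to 0.0674 for Rpl3l/Rpl3. The cause was not tested.

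Libraries of the same replicate number did not deviate together (correlations of -0.21, -0.06 and -0.41). With so few libraries this cannot show whether the samples were paired, and the labels do not give the mouse behind each sample. With the replicate block 0 of 85 genes were called (2 at an unadjusted p under 0.05), the median was 0.17, and Rps27 was at -0.0462.

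Depth limits only the variants: 3 counts correspond to 0.126 to 0.235 CPM, so Rpl10l may be present below that level. The comparison relative to the median core gene, and leaving out libraries for the share and the ratios, were chosen after seeing the data.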
